A study of Mus musculus with 2 samples.

Results

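Among 13045 cultured mouse aortic vascular smooth muscle cells (VSMCs), 3018 carried almost no transcripts of the mitochondrial genome, and these low-mitochondrial cells are described here. They were chosen by a measured value: the unique molecular identifiers (UMIs, each standing for 1 counted RNA molecule) of the 13 genes whose symbols start with mt- made up under 0.25% of the cell's gene UMIs. Barcodes counted as cells from 2218 gene UMIs and 200 genes upward, and the 10027 cells at or above 0.25% served as the comparison. The study cultured primary aortic VSMCs of C57BL/6 mice in 4 groups. Cells of mice aged 12 weeks formed the young group and those of mice aged 58 to 78 weeks the old group. A further young group received 100 nM angiotensin II (AngII) over 48 h. A further old group received Piezo1 siRNA over 48 h, at 20 nM by the study's methods and at a higher dose by its results section. The cells came from commercial suppliers and were used at low passage, and the labels name no replicate cultures or individual animals. The groups were marked with antibodies carrying DNA tags (hashtags) and mixed into 1 droplet library. The labels do not say which tag marked which group, so values are given for tags 1 to 4 by number.

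The mitochondrial genome encodes 13 proteins, all subunits of the respiratory chain or the ATP synthase, and their mRNAs are made and translated inside the organelle. All other mitochondrial proteins, including most subunits of those same complexes, are encoded in the nucleus and translated in the cytosol. In cultured smooth muscle cells mitochondrial mRNAs are ordinarily abundant, and their share of a cell's transcripts is widely used as a quality measure in single-cell data.

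The mitochondrial share ran from cells with none to a broad main population. Over all cells the median was 1.33% (quartiles 0.320% and 2.11%). In the low-mitochondrial cells it was 0.0436% (quartiles 0.0170% and 0.107%), a median of 4 mitochondrial UMIs per cell against 120 in the other cells. Of the 3018 cells, 1619 (53.6%) were under 0.05% and 312 (10.3%, exact 95% interval 9.27 to 11.5%) had no mitochondrial UMI. The limit lay within a continuous distribution, with 211 cells between 0.2 and 0.25% and 176 between 0.25 and 0.3%. These neighbours had similar medians of 8737 and 8258 gene UMIs per cell. RNA outside cells, read from the 1299325 barcodes with 1 to 100 UMIs, had a mitochondrial share of 1.70%, and the 58070 barcodes with 101 to 500 UMIs, which held more UMIs in all (17358384 against 2096028), had 0.791%. Both lay above the summed 0.0664% of the low-mitochondrial cells. Barcodes too shallow to count as cells included low-mitochondrial ones as well, 318 of the 1573 with 1001 to 2217 UMIs (20.2%).

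All 13 mitochondrial mRNAs were low, which the choice of cells sets and which is given as a description. Levels are CPM, counts scaled to 1000000 of the UMIs of nuclear genes, summed over the cells of a group. mt-Co1, a catalytic subunit of cytochrome c oxidase, was at 101 CPM in the low-mitochondrial cells and 2582 in the others. mt-Nd1, a complex I subunit, was at 46.5 against 1299 CPM, and mt-Cytb, the cytochrome b of complex III, at 98.0 against 2285. The ratios of these 3 markers were 0.0392, 0.0358 and 0.0429. The other 10 mRNAs had ratios between 0.0198 for mt-Nd6, the only one read from the opposite strand of the mitochondrial genome, and 0.0390 for mt-Nd4. Of the abundant mRNAs, mt-Co3 was at 138 against 3769 CPM and mt-Atp6, an ATP synthase subunit, at 91.4 against 2680. The reduction thus ran across complexes I, III, IV and V.

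The share of low-mitochondrial cells differed between the tags. It was 23.5% of tag 1 (740 of 3144 cells, exact 95% interval 22.1 to 25.1%), 13.7% of tag 2 (68 of 497, 10.8 to 17.0%), 51.1% of tag 3 (767 of 1500, 48.6 to 53.7%) and 15.6% of tag 4 (239 of 1529, 13.8 to 17.5%). Tag 3 was highest, tag 1 followed, and the intervals of tags 2 and 4 overlapped. Cells with no tag above its cutoff held 12.8% (679 of 5307), and cells with more than 1 tag held 49.2% (525 of 1068). Of the cells positive for tags 1 and 3 and no other, 64.9% were low-mitochondrial (209 of 322). Intervals here and below cover counting error only. Each tag is taken as 1 culture, and whether every cell of a tag came from that culture was not tested. There are no replicate cultures, so no test between cultures was possible and differences between tags cannot be told apart from differences between single cultures. Tag 3 remained highest at limits of 0.1% (40.8%) and 0.5% (60.2%), and without cells that Scrublet called doublets (57.5%). Under another tag rule, the largest tag had to exceed its cutoff and be at least 3 times the next. The shares were then 28.1%, 19.0%, 54.2% and 18.2% in tags 1 to 4. Each lay above the interval given, so the shares depend on the tag rule, with tag 3 still highest.

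**Figure D1:**
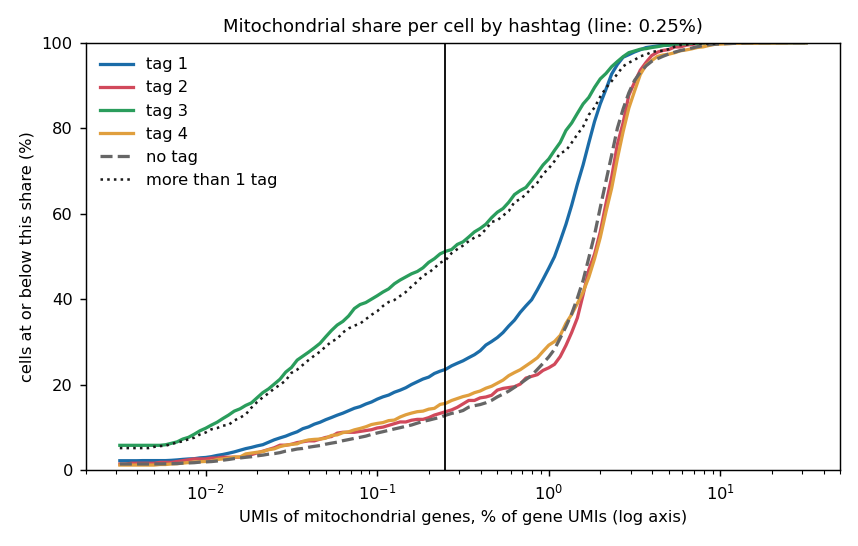
Cumulative share of cells (y axis, %) at or below a given share of mitochondrial UMIs (x axis, % of gene UMIs, log axis) for each hashtag, for cells with no tag and for cells with more than 1; the vertical line marks the limit of 0.25%. The curves of tag 3 and of cells with more than 1 tag cross the line near 50%, that of tag 1 at 23.5%, and those of tags 2 and 4 and of untagged cells between 12.8 and 15.6%.

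The low-mitochondrial cells were deeper than the rest. Their median was 9750 gene UMIs and 3210.5 genes per cell, against 7519 UMIs and 2802 genes. The same order held inside every tag, with median UMIs of 7652 against 6587 in tag 1, 14332.5 against 10079 in tag 2, 10321 against 8840 in tag 3 and 12676 against 9434.5 in tag 4. After each cell was thinned to 2000 nuclear UMIs, which left out 1 cell of the comparison group, the order of genes per cell turned: the median was 1107 genes in the low-mitochondrial cells and 1143 in the others. The thinned median was lower in all 4 tags, most clearly in tag 2 (1074 against 1133). Hashtag UMIs were also higher, with a median of 189 per cell against 111, and 59.6 against 31.0 per 1000 gene UMIs when summed. Inside a tag the number of UMIs of that tag was 483.5 against 335 in tag 1, 93 against 75 in tag 2, 135 against 98 in tag 3 and 73 against 65 in tag 4. Per 1000 gene UMIs the hashtags were higher in tag 1 (93.6 against 75.8), nearly level in tag 3 (20.9 against 20.8) and lower in tags 2 (12.6 against 14.7) and 4 (12.2 against 14.1). Scrublet called 24.1% of the low-mitochondrial cells doublets and 23.2% of the others, and 17.4% of the low-mitochondrial cells had more than 1 tag against 5.42% of the others. Inside the tags the order of the doublet calls varied, with 22.3% against 23.6% in tag 1, 26.5% against 21% in tag 2, 12.6% against 32.5% in tag 3 and 27.6% against 18.4% in tag 4. They were fewer in the low-mitochondrial cells also among untagged cells (14.3% against 18.2%) and cells with more than 1 tag (54.3% against 65.0%). The part of doublets in the results below was not tested beyond repeating them without the called cells.

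In nuclear gene expression the low-mitochondrial cells lay partly together, and they carried smooth muscle markers as the other cells did. Of the 20 nearest neighbours of a low-mitochondrial cell, in 30 principal components of nuclear genes, 44.0% were also low-mitochondrial, against 23.1% of all cells. Counting only neighbours of the same tag, the share was 33.3% in tag 1 (23.5% of the tag), 34.2% in tag 2 (13.7%), 64.9% in tag 3 (51.1%) and 26.4% in tag 4 (15.6%). Among the neighbours of the other cells of the tag it was 21.3%, 11.3%, 52.8% and 11.6% in tags 1 to 4. Acta2, smooth muscle actin, was at 375 CPM in the low-mitochondrial cells and 332 in the others, and Tagln, an actin-binding protein of smooth muscle, at 731 against 572. The ratio of Tagln was 1.29, 1.78, 0.961 and 2.02 in tags 1 to 4. The late contractile markers were scarce in both, with Myh11, the smooth muscle myosin heavy chain, at 5.25 against 4.17 CPM and Cnn1 at 17.0 against 18.2. Markers of other cell types were summed by list. The 11 macrophage markers summed to 11.5 CPM against 9.20, led by Csf1r at 4.80 against 3.77, and 4 of them, Ptprc and the 3 C1q chains, had no UMI in the low-mitochondrial cells. The 10 endothelial markers summed to 14.7 against 16 CPM, led by Egfl7 at 8.44 against 10.1, with Cldn5 and Tie1 at 0. The 7 erythroid, 6 platelet and 7 lymphocyte markers summed to 0.612, 3.38 and 0.548 CPM, against 1.51, 3.38 and 0.545. Alas2 led the erythroid list at 0.516 CPM, and all 4 globin genes were at 0. Itga2b led the platelet list at 2.61 CPM, with Gp9 and Tubb1 at 0, and Ms4a1 the lymphocyte list at 0.322 CPM, with Cd3d, Cd3e, Cd2 and Cd79b at 0. The 9 epithelial markers summed to 40.0 against 26.6 CPM, led by Perp at 20.0 against 12.1, with Krt14 at 0 and Epcam at 0.0967. Upk1b, a uroplakin, was at 10.4 against 4.05 CPM, with ratios of 0.871, 6.10, 1.31 and 5.47 in tags 1 to 4. The summed epithelial ratio ran from 0.968 in tag 1 to 2.92 in tag 2, and its part in the results below was not tested. The 7 fibroblast markers summed to 102 against 115 CPM, and none of them was at 0. Ly6c1 was at 54.1 against 45.4 CPM and Pdgfra at 35.3 against 55.9, so these markers differed in direction.

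Against the other cells, nuclear expression differed little in size. Of 6372 nuclear genes with at least 20 CPM over all cells, 6 (0.0942%) were at least 2 times higher in the low-mitochondrial cells and 51 (0.800%) were lower by a factor of at least 2. These counts were 3 and 9 for the mean ratio over the tags and 21 and 103 without called doublets. At a factor of 1.5 the counts were 73 higher (1.15%) and 289 lower (4.54%). The median log2 ratio was -0.08 (quartiles -0.24 and 0.08), and 3966 genes (62.2%) were below 0. Inside the tags the median was -0.07, -0.12, -0.07 and -0.09 in tags 1 to 4. In all 4 tags at once 971 genes (15.2%) were higher and 2374 (37.3%) lower. Cells are not replicates, so these counts are of ratios past a stated size, with no test.

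The 12 genes named for the highest ratios were above 1 in every tag, as the rule for naming them required. Cryab, the small heat shock protein alpha-B-crystallin, was at 3920 CPM in the low-mitochondrial cells and 2747 in the others in tag 1, 1993 against 589 in tag 2, 5268 against 3849 in tag 3 and 1189 against 407 in tag 4. The low-mitochondrial cells were higher in each tag, and the tag set the level more than the mitochondrial class did. Pooled over all cells the ratio of Cryab was 2.30 (2.29 to 2.32), against 1.43 and 1.37 in tags 1 and 3 and 3.38 and 2.92 in tags 2 and 4. Pooled ratios mix cultures, since tag 3 held 25.4% of the low-mitochondrial cells and 7.31% of the others. Serpinb2, an inhibitor of plasminogen activators, was at 836 against 385 CPM (ratio 2.17), with ratios from 1.04 in tag 3 to 2.62 in tag 4. Prss23, a secreted serine protease, was at 427 against 208 CPM, and its ratio was 1.38, 3.15, 1.47 and 2.71 in tags 1 to 4.

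Lox, the enzyme that crosslinks collagen and elastin, was at 936 against 489 CPM (ratio 1.91), and Mfap5, a microfibril protein, at 542 against 280 (1.94). In tags 1 to 4 the ratios of Lox were 1.13, 1.99, 1.33 and 2.31, and those of Mfap5 1.35, 1.88, 1.30 and 2.29. Gm41724, annotated as an antisense RNA whose span overlaps the start of Lox on the other strand, had the highest ratio of all, 2.62 (2.5 to 2.75), at 106 against 40.5 CPM; no source used here says whether counting was stranded, so reads of this pair may not be fully separate. The cytokine Ccl20 was at 48.2 against 24.2 CPM and was the gene of this set with its largest tag ratio in tag 1 (2.42). The other genes of the set were Ntn4 (2.27), a netrin of basement membranes, Adcyap1r1 (2.19), the receptor of the neuropeptide PACAP, Tfpi2 (1.95), a protease inhibitor, Sbsn (1.89) and Vamp5 (1.89). Tfpi2 ran from 1.02 in tag 3 to 2.48 in tag 4. The ratio of Ntn4 was 1.01 in tag 1 and 6.86 in tag 2, where it was at only 6.10 and 0.889 CPM.

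**Figure D2:**
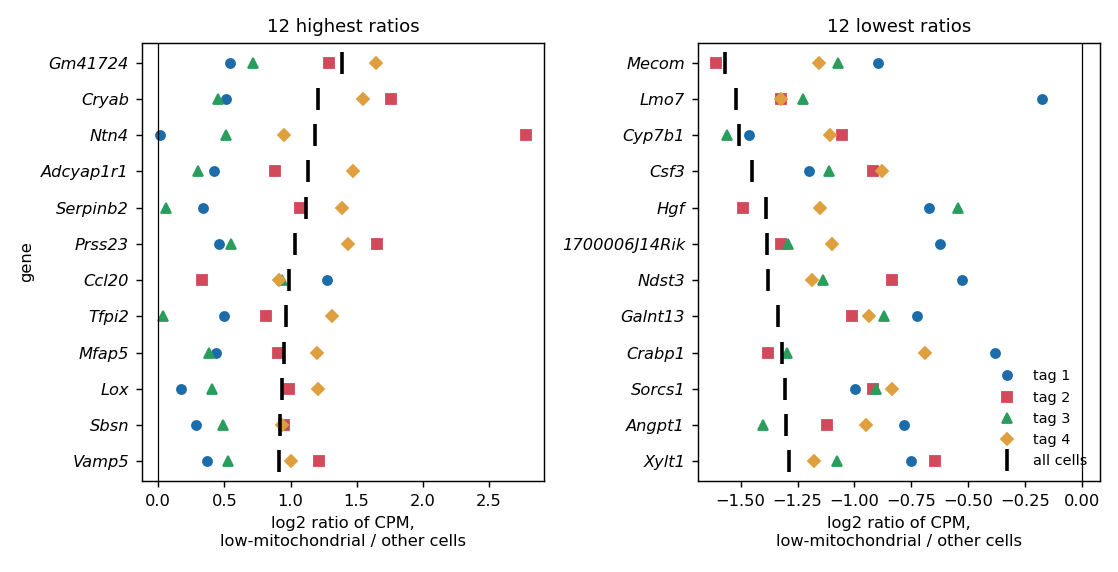
Log2 ratio of CPM in low-mitochondrial against other cells (x axis) for the 12 nuclear genes with the highest and the 12 with the lowest pooled ratio among those on the same side of 0 in every tag; symbols stand for tags and bars for all cells. Cryab lies at ratios from 1.37 to 3.38 in the tags and Mecom from 0.328 to 0.538.

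The 12 genes named for the lowest ratios were below 1 in every tag by the same rule. Mecom, a zinc finger transcription factor gene of 597 kb, was at 50.5 CPM in the low-mitochondrial cells and 94.0 in the others in tag 1, 84.4 against 257 in tag 2, 47.0 against 98.9 in tag 3 and 170 against 378 in tag 4. It was lower in each tag, with a pooled ratio of 0.337 (0.323 to 0.351). Cyp7b1, an oxysterol hydroxylase, was at 11.8 against 33.5 CPM (0.352), with ratios between 0.339 and 0.481 in the tags. Hgf, hepatocyte growth factor, was at 17.7 against 46.4 CPM (0.382), and Angpt1, the ligand of the endothelial receptor Tie2, at 12.4 against 30.7 (0.405). Inside the tags Hgf ran from 0.356 in tag 2 to 0.686 in tag 3, and Angpt1 from 0.378 in tag 3 to 0.581 in tag 1. Csf3, the granulocyte colony stimulating factor, was at 15.1 against 41.1 CPM (0.366), and Crabp1, a retinoic acid binding protein, at 33.7 against 84.2 (0.40); these are short genes of 2.37 and 8.36 kb. Csf3 ran from 0.435 in tag 1 to 0.544 in tag 4, and Crabp1 had a ratio of 0.768 in tag 1. The others were Lmo7 (0.349), 1700006J14Rik (0.383, annotated as antisense), the heparan sulfate and glycan enzymes Ndst3 (0.384), Galnt13 (0.397) and Xylt1 (0.409), and the sorting receptor Sorcs1 (0.405). Ndst3 was at 0.695 in tag 1, and Lmo7 had a ratio of 0.885 in tag 1 and of 0.40 to 0.428 in the other tags. When the log ratios of the 4 tags were averaged, with 1 CPM added, 3 genes remained at least 2 times higher (Cryab, Gm41724 and Prss23) and 9 were lower by at least 2 times. Mecom, Cyp7b1 and 1700006J14Rik were among these 9, and the other 6, chosen after their values were seen, were Il1rapl1, Slit2, Ror2, Plcb1, Grik2 and Sdk1.

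Of 8 tested RNAs that stay in the nucleus, 6 were lower in the low-mitochondrial cells, with Malat1 the most abundant of them. Malat1, an abundant long noncoding RNA of nuclear speckles, was at 12620 CPM in the low-mitochondrial cells and 17353 in the others in tag 1, 9264 against 18519 in tag 2, 12947 against 19040 in tag 3 and 10542 against 18235 in tag 4. The others were close together, between 17353 and 19040, and every low-mitochondrial value lay below them. The pooled ratio of Malat1 was 0.671 (0.668 to 0.673). Per cell, the median share of Malat1 in nuclear-gene UMIs was 0.689% (quartiles 0.176% and 1.8%) against 1.45% (0.673% and 2.57%). Cells with under 0.1% Malat1 made up 18.3% of the low-mitochondrial cells (551) and 5.98% of the others (600). The groups overlapped widely. Just inside and just outside the limit of 0.25% the median Malat1 share was 0.953% and 0.763%.

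The list of 12 nuclear-retained noncoding RNAs summed to 13360 CPM against 19935, a ratio of 0.670 (0.668 to 0.672), nearly all of it Malat1. Of its 8 members with enough counts, 5 were lower by at least 1.5 times (4.54% of all genes tested) and 6 were lower in all 4 tags (37.3% of all genes tested). Neat1, the scaffold of paraspeckles, was at 196 against 306 CPM (0.641), Kcnq1ot1, an imprinted RNA that silences its neighbours, at 50.2 against 85.5 (0.588), Airn, which silences Igf2r in cis, at 75.9 against 135 (0.562), and Pvt1 at 188 against 298 (0.632). Xist, the RNA that coats the inactive X chromosome, was at 241 against 467 CPM (0.515). Its ratio was nearer to 1 in every tag, at 0.936 (0.858 to 1.02), 0.832, 0.595 and 0.698 in tags 1 to 4. In the other cells Xist was at 116, 667, 152 and 830 CPM in tags 1 to 4, so its pooled ratio mixes cultures. Meg3 and Rian, from one imprinted locus, had ratios of 1.01 and 1.18. The list's median log2 ratio was -0.65, against -0.08 over all genes. The 3 gene models that overlap ribosomal RNA summed to 1039 against 1590 CPM (0.653), led by Gm42418 at 943 against 1457, and in RNA outside cells they stood at 6889 CPM.

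The lower level of long genes was general. In the reference annotation, genes with a span under 5 kb had a median log2 ratio of 0.05 (680 genes, 37.4% below 0). The median was 0.03 at 5 to 10 kb, -0.01 at 10 to 20 kb, -0.07 at 20 to 50 kb, -0.17 at 50 to 100 kb and -0.26 at 100 to 200 kb. For the 453 genes over 200 kb it was -0.39, and 88.3% of them were below 0. These 453 genes held 27 of the 51 that were lower by at least 2 times and none of the 6 that were higher. The order was the same in every tag: medians over 200 kb were -0.35, -0.59, -0.34 and -0.43 in tags 1 to 4, and under 5 kb 0.06, 0.11, 0.05 and 0.10. Leaving out ribosomal and respiratory chain genes kept the median under 5 kb at 0.05. None of the genes left out spanned over 200 kb, so that end could not change. In cells under 5000 UMIs the medians under 5 kb and over 200 kb were 0.09 and -0.40. Among the 12 genes named for the lowest ratios 8 spanned over 100 kb, and among the 12 named for the highest 1 did, where 671 of all 6372 genes tested spanned 100 to 200 kb and 453 more. Spans were taken from GENCODE vM21 by gene identifier, with no build of the counts named in any source used here, and the measure was added after the data were seen.

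**Figure D3:**
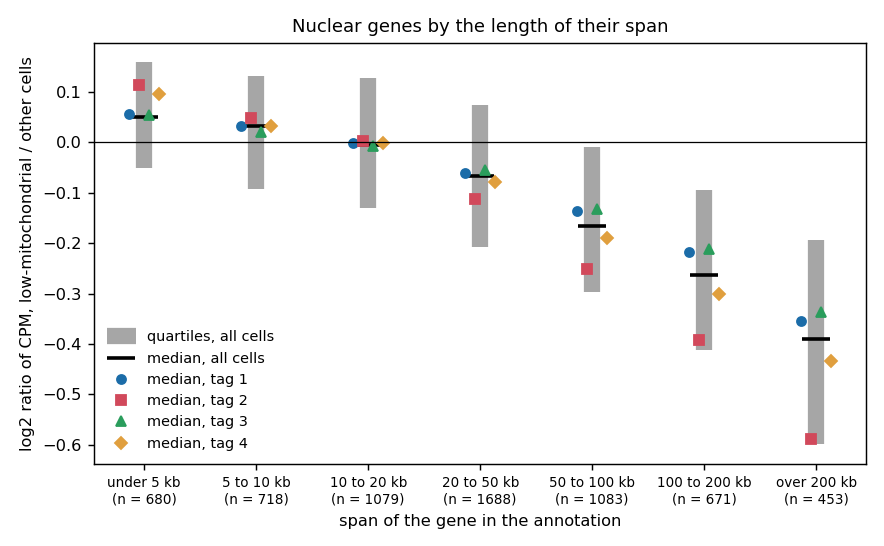
Log2 ratio of CPM in low-mitochondrial against other cells (y axis) for nuclear genes grouped by the length of their annotated span (x axis, n genes in each class); grey bars give the quartiles and black lines the median over all cells, symbols the median in each tag. The median falls from 0.05 under 5 kb to -0.39 over 200 kb, with tag 2 lowest at -0.59.

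The dependence on span moved with Malat1. Between low-mitochondrial and other cells that both had 1 to 2% Malat1 (560 and 2780 cells), the median log2 ratio of genes over 200 kb was -0.20 and that of genes under 5 kb was -0.00440. In cells with under 0.5% Malat1 (1301 and 1897) the same medians were -0.31 and 0.01. Among the other cells alone, those with under 0.5% Malat1 against those with 1 to 2% had medians of -0.62 over 200 kb and 0.14 under 5 kb, so the same order was present without any low-mitochondrial cell. Within either range of Malat1, long genes were thus lower in low-mitochondrial cells by a smaller amount than over all cells, and Malat1 may still differ between the groups inside a range. What sets the share of Malat1 was not tested.

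Nuclear genes for nuclear processes were also lower as groups. All 19 splicing and speckle genes were lower in every tag, against 37.3% of all genes tested, summing to 2836 against 3453 CPM (0.821), with Srrm2 at 328 against 392 and Ddx5, an RNA helicase, at 312 against 380. Of 19 chromatin regulators 18 were lower in every tag, against the same 37.3%, summing to 1668 against 2062 CPM (0.809); the chromatin remodelers Chd4 and Atrx were at 189 against 223 and 153 against 200 CPM. Setd5 was the single one lower by 1.5 times (0.663), against 4.54% of all genes tested. These backgrounds cover genes of all spans. Chd4 spans 34.6 kb and Atrx 132 kb. Of all genes tested, 62.1% of those at 20 to 50 kb and 84.6% of those at 100 to 200 kb had pooled ratios below 1. Whether these lists differ from genes of like span was not tested. The nuclear lamina and its linkers to the cytoskeleton were at 872 against 1002 CPM (0.870). Syne1, the giant linker protein nesprin-1 from a gene of 531 kb, had a ratio of 0.687, while Lmna, lamin A/C, was at 280 against 295 CPM (0.95) and Banf1 at 147 in both.

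Genes of the G2/M phases were lower in every tag. The 16 G2/M genes summed to 742 CPM against 1161 (0.639, 0.630 to 0.648), all 13 tested members were lower in every tag (37.3% of all genes tested), and 10 were lower by at least 1.5 times, against 4.54% of all genes tested. The list's median log2 ratio was -0.75 over all cells, -0.33 in cells under 5000 UMIs and -0.94 without called doublets. The summed ratio was 0.848 in tag 1, 0.551 in tag 2, 0.776 in tag 3 and 0.687 in tag 4. The nuclear-retained RNAs had a higher pooled ratio than this list (0.670) but a lower one inside each tag, at 0.731, 0.518, 0.683 and 0.592. Top2a, the topoisomerase of dividing cells, was at 116 against 187 CPM, Mki67, a proliferation marker, at 36.6 against 66.6, and Ccnb1, the cyclin of mitotic entry, at 20.7 against 38. The S phase list was closer, at 918 against 1042 CPM (0.880), with the replication factor Pclaf at 189 against 215 and Tyms, thymidylate synthase, at 76.4 against 85.9. The median log2 ratio of the S phase list was -0.18 over all cells but 0.04 in cells under 5000 UMIs. The list's summed ratio was 0.976 in tag 1 and 0.699 in tag 2, and Pclaf and Tyms had ratios of 1.03 and 1.01 in tag 1. In all 4 tags 7 of 12 tested members were lower, against 37.3% of all genes tested. Immediate early genes summed to 1312 against 1609 CPM (0.815). Of 12 tested members 3 were lower by at least 1.5 times, against 4.54% of all genes tested, namely the transcription factors Fosb, Jun and Nr4a1 (0.502, 0.597 and 0.646). Ier3, its most abundant gene, was at 352 against 435 CPM overall but at a ratio of 1.0 in tags 1 and 2.

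Nuclear-encoded mitochondrial genes did not share the shortage of mitochondrial mRNAs. The 84 respiratory chain and ATP synthase genes summed to 20839 CPM in the low-mitochondrial cells and 20398 in the others (1.02), and none of 78 tested was past a factor of 1.5, against 1.15% of all genes tested higher and 4.54% lower. Cox4i1 and Cox8a, nuclear subunits of cytochrome c oxidase, were at 1173 against 1123 and 874 against 817 CPM, beside a ratio of 0.0392 for mt-Co1 of the same complex. The mitochondrial ribosome was at 6821 against 6722 CPM (1.01), with Mrpl20 at 284 against 263. Genes that maintain and express mitochondrial DNA summed to 361 against 399 CPM (0.906). Tfam, which packages mitochondrial DNA, was at 20.6 against 23.0 CPM, the RNA polymerase gene Polrmt at 3.93 against 4.33, and Nrf1, a nuclear regulator of these genes, at 26.4 against 38.9 (0.678). Chaperones and proteases of the organelle were at 1509 against 1650 CPM (0.915), and Hspd1, the matrix chaperonin, at 376 against 459, with ratios between 0.794 and 0.873 in the tags. Genes of mitophagy and mitochondrial dynamics were at 736 against 773 CPM (0.952), with Fis1 at 204 against 187, Sqstm1 at 113 against 120 and Bnip3 at 66.6 against 86.1. Pink1, a kinase of mitophagy, was at 10.3 against 9.95 CPM.

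As lists, the cytosolic ribosomal proteins and the cytoskeleton were slightly higher. Cytosolic ribosomal proteins made up 202873 CPM against 193826 (ratio 1.05), with 68 of 78 tested members higher in all 4 tags, against 15.2% of all genes tested, and none past a factor of 1.5. Rps20 was at 5533 against 4813 CPM, while Rpl13, the most abundant, was at 6493 against 6611 in the pool (0.982) but at ratios from 1.01 to 1.04 inside the tags. Translation factors had a summed ratio of 1.05, but 10 of 16 had pooled ratios below 1 and the median log2 ratio was -0.05. Tpt1, the most abundant of them, was at 10676 against 9089 CPM. All 16 cytoskeleton genes had pooled ratios above 1, against 2406 of all 6372 genes tested. In all 4 tags 9 of the 16 were higher, against 15.2% of all genes tested, and Tuba1b, a tubulin, was below 1 in every tag. They summed to 30720 against 26265 CPM (1.17), and the ratio inside the tags ran from 1.05 in tag 3 to 1.31 in tag 4. Actb, cytoplasmic actin, was at 7191 against 6209 CPM in tag 1, 8926 against 7256 in tag 2, 10047 against 8916 in tag 3 and 7653 against 5761 in tag 4. It was higher in each tag, with ratios from 1.13 to 1.33.

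The secreted matrix list summed to 22428 against 20210 CPM (1.11), and 3 of 20 tested members were higher by at least 1.5 times, against 1.15% of all genes. Among them were Lox and Timp1, an inhibitor of metalloproteinases (4778 against 2802 CPM, 1.71). The tag ratios of Timp1 were 1.33, 1.68, 1.23 and 1.59 in tags 1 to 4, and those of Lox 1.13, 1.99, 1.33 and 2.31. Spp1, osteopontin, and Mgp, matrix Gla protein, went the other way in the pool (0.789 and 0.808) but were above 1 in tag 1 (1.08 and 1.11), and Mgp also in tag 2 (1.54). Contractile genes summed to 4854 against 4499 CPM (1.08), at 0.934 in tag 3 and 1.28 in tag 2. Cald1, caldesmon, had ratios of 1.04, 1.27, 0.982 and 1.36 in tags 1 to 4.

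Stress lists were nearly level. The heat shock list had a ratio of 0.955. Hspb1 was its single member of 6 tested higher by 1.5 times, at 556 against 349 CPM (1.59), against 1.15% of all genes tested. Hspa1a, the inducible Hsp70, was at 1.74 against 3.27 CPM. Cryab, the small heat shock protein named above, was not on this list and was at 3635 against 1578 CPM (2.30). The integrated stress response, which mitochondrial dysfunction can switch on, was at 427 against 418 CPM (1.02), with Atf4 at 89.0 against 101, Ddit3 at 84.7 against 76.2 and Atf5 at 56.6 against 48.9. Protein folding in the endoplasmic reticulum was at 0.987, and the p53 and apoptosis list at 0.979, with Cdkn1a (p21) at 663 against 675 CPM, Bax at 525 against 518, Mdm2 at 369 against 430 and Bcl2l11 the single member of 10 tested lower by 1.5 times (0.627, against 4.54% of all genes). Glycolysis genes were at 4585 against 4998 CPM (0.917), with Ldha at 606 against 683 and Pkm at 556 against 667. Interferon response genes summed to 2014 against 1732 CPM (1.16), but the ratio was 0.966 in tag 1 and 1.46 in tag 2, and Isg15 ranged from 0.935 to 2.16. In singly tagged cells without doublets the list's median log2 ratio was -0.27, against 0.19 over all cells. Of all 473 list members tested none was past a factor of 2 in either direction, against 0.0942% of all genes higher and 0.800% lower.

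**Figure D4:**
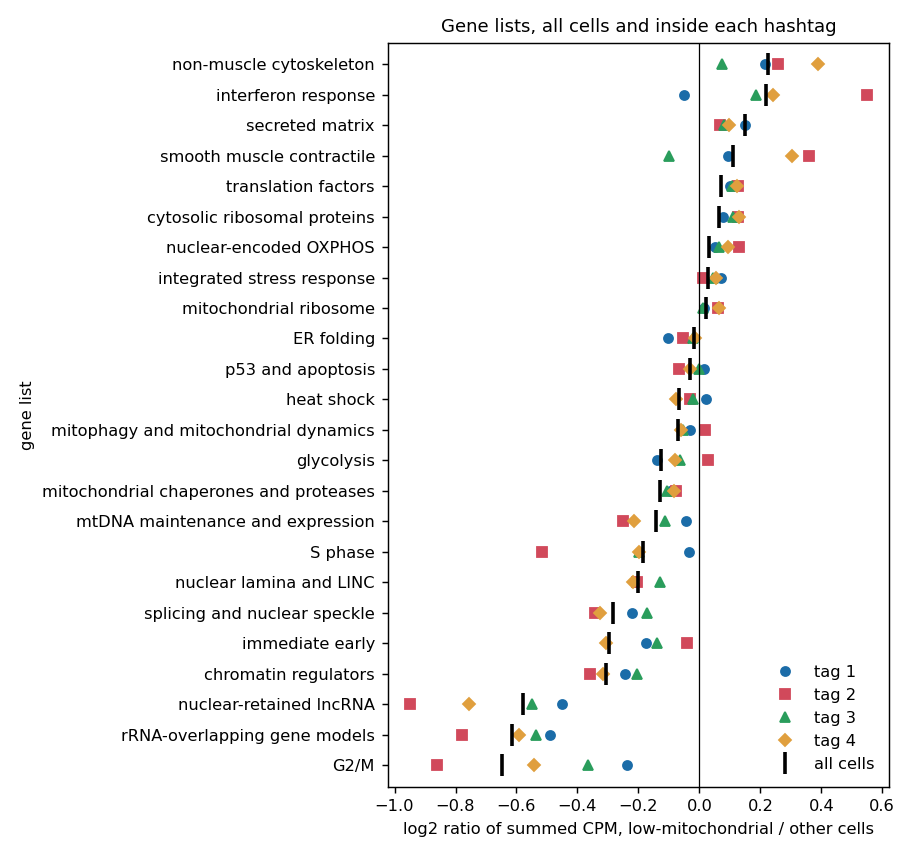
Log2 ratio of summed CPM in low-mitochondrial against other cells (x axis) for each gene list with at least 3 tested members (y axis); symbols stand for the 4 tags and bars for all cells. Nuclear-retained RNA, rRNA-overlapping models, G2/M, splicing and chromatin genes lie left of 0 in every tag, and the cytoskeleton right of 0 in every tag, while contractile and interferon genes cross 0.

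Cells ordered by mitochondrial share gave a graded picture for nuclear RNA. The nuclear-retained RNAs summed to 13360 CPM under 0.25%, 17235 at 0.25 to 1%, 19799 at 1 to 2% and 20603 at 2 to 5%. In the 211 cells at 5 to 10% and the 20 cells at 10% and over they reached 59245 and 98016 CPM. Genes over 200 kb followed the same order, from 40488 CPM in the low-mitochondrial cells through 50805 at 1 to 2% to 102449 at 5 to 10%. Ribosomal proteins stayed between 193709 and 202873 CPM up to 5% and were 111993 at 5 to 10%. The cells at 5 to 10% had a median of only 3915 UMIs. The low-mitochondrial cells were thus at the opposite end from these shallow cells in nuclear RNA, but at a much smaller distance from the main population. Against cells at 1 to 10% alone, 26 genes were at least 2 times higher and 76 lower by at least 2 times.

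**Figure D5:**
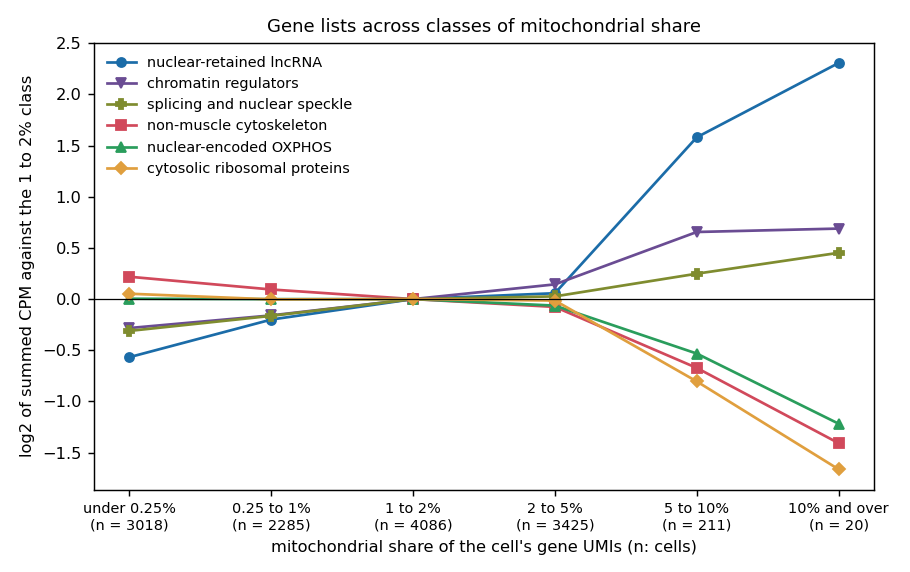
Summed CPM of 6 gene lists by class of mitochondrial share (x axis, n cells in each class), as log2 against the class at 1 to 2% (y axis). Nuclear-retained RNA rises from 13360 CPM in the low-mitochondrial cells at the left to 98016 CPM at the right, while ribosomal proteins are lowest at the right.

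Piezo1, the mechanosensitive channel targeted by the siRNA, hardly differed with the mitochondrial share. It was at 91.6 CPM in the low-mitochondrial cells and 85.5 in the others, a ratio of 1.07 (1.03 to 1.12). The ratio was 1.01 in tag 1, 0.769 in tag 2, 1.06 in tag 3 and 0.958 in tag 4.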

How the data were processed

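The data are raw UMI counts of 32285 genes and 4 hashtags in 2472397 barcodes of 1 library (138733332 gene UMIs), which the authors made with Cell Ranger 4 (10x 3' v3.1 chemistry) and deposited without a filter on cells; the submitters' processing notes also name Seurat. No source used here gives the genome build or strand setting. The cell limit of 2218 UMIs was set by dividing by 10 the depth at percentile 99 of the top 10000 barcodes, and left 115033686 UMIs in 13045 cells. A cell belonged to a tag when only that tag exceeded 36, 52, 61 or 41 UMIs (tags 1 to 4).

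CPM are a gene's summed UMIs over those of all nuclear genes, scaled to 1000000, and the low-mitochondrial and other cells held 31046732 and 83986954 gene UMIs. Ratios carry exact binomial and shares Clopper-Pearson 95% intervals (scipy 1.17.1), which cover counting error only. No significance test was run; cells are not replicates, and each tag was taken as 1 culture. The code for ratios and their intervals was checked on simulated counts. Doublets were called with Scrublet (scanpy 1.11.5, expected rate 0.1) and kept except where stated. The calls came to 23.4% of cells, far above that rate. Spans came from GENCODE vM21 (GRCm38), which held 32235 of the gene identifiers and all 6372 genes tested. Named genes are the 12 highest and 12 lowest ratios whose interval leaves out 1 and which lie on the same side of 1 in every tag, the 3 most abundant genes of each of 32 lists, the mitochondrial mRNAs and Piezo1. Other list members named in the text, and the values by gene span and at matched Malat1, were chosen after their values were seen. The cells and the lists were chosen with earlier results of these data known. Alternatives were other limits, depths, weights, denominators, filters, folds and tag rules. Some list members are not reported here.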

Additional observations from a re-analysis of the deposited data

How the results depend on the processing

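Low-mitochondrial cells made up 16.9% of cells at a limit of 0.1%, 29.2% at 0.5% and 24.8% among cells with at least 5000 UMIs, against 23.1%. Their hashtag UMIs per 1000 gene UMIs were 1.92 times those of the others. The factor was 2.08 at 0.1%, 1.83 at 0.5%, 2.16 at 5000 UMIs or more and 1.34 under 5000. It was 1.72 without Scrublet doublets and 2.09 against cells at 1 to 10%. By tag these UMIs were higher in tag 1 and in cells with more than 1 tag, and nearly level in tag 3. They were lower in tags 2 and 4 and in untagged cells. The 6 genes at least 2 times higher became 21 without doublets, 26 against cells at 1 to 10%, 19 under 5000 UMIs, 3 as the mean over tags, 24 with genes from 5 CPM and 73 at a fold of 1.5. The 51 lower by at least 2 times became 103 without doublets, 115 under 5000 UMIs, 9 as the mean over tags, 110 from 5 CPM, 21 from 50 CPM, 289 at a fold of 1.5 and 90 in singly tagged cells without doublets, an alternative chosen after seeing the data. The summed ratio of nuclear-retained RNA (0.670) was 0.645 at 0.1%, 0.676 at 0.5%, 0.644 against cells at 1 to 10%, 0.777 under 5000 UMIs, 0.693 with cells weighted equally, 0.682 over all gene UMIs and 0.626 as the mean over tags. That of ribosomal proteins (1.05) was 1.06 at 0.1%, 1.04 at 0.5%, 1.05 at 5000 UMIs or more, under 5000 and against cells at 1 to 10%, 1.03 without doublets, also in singly tagged cells, 1.04 with cells weighted equally, 1.06 over all gene UMIs and 1.08 as the mean over tags. Among list medians over 0.1 from 0 on the log2 scale, the sign turned for 3, to -0.0398 for the integrated stress response and 0.0379 for S phase under 5000 UMIs, and to -0.27 for interferon response in singly tagged cells without doublets. Medians nearer 0 also changed sign, for ER folding, heat shock, the mitochondrial ribosome and translation factors. The causes were not tested. For the share of cells, the hashtag factor, both gene counts and both summed ratios, 39 values moved beyond their set range and 17 stayed. That range was the counting interval, or a factor of 1.5 for the gene counts. Of the other values 316 stayed within the range set for them (the counting interval, or 0.1 on the log2 scale for list medians) and 151 moved beyond it. Among these were the ratios of the named highest and lowest genes, of which 118 stayed and 122 moved. In cells under 5000 UMIs Angpt1 was at 0.217, Ndst3 at 0.230 and Galnt13 at 0.245, further from 1 than over all cells. 1700006J14Rik (0.557) and Crabp1 (0.553) lay nearer to 1. Each tag holds both kinds of cells, so a comparison paired by tag could be fitted over the 4 cultures, but none was run; the mean over tags is given above with no test.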
